A study of Mus musculus with 24 samples.

Results

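The alpha class of cytosolic glutathione transferases was followed in mouse liver through its 5 genes in the count table, Gsta1, Gsta2, Gsta3, Gsta4 and Gm10639. They were chosen by name, as the genes whose symbol is one of these 5 among the 15160 genes counted, and all 5 were among the 13336 genes abundant enough to be tested. Liver RNA came from 24 male mice, labelled as 5 months old, in 4 groups of 6. WT mice had the genotype NRF2fl/fl, with both alleles of Nfe2l2 floxed and no Cre, and NRF2 KO mice had the genotype NRF2fl/(alb), the same floxed alleles with a Cre driven by the albumin promoter, which excises exon 5 in hepatocytes and leaves the gene intact in liver cells where that promoter is silent. Mice of each genotype ate a control diet with 0.86% methionine (Con) or a methionine-restricted diet with 0.17% methionine (MR) for 8 weeks from 8 weeks of age. Calorimetry and a recovery period came before the liver was taken, after a 4 h fast, and the labels do not say which diet was fed during them. Of the 24 mice, the 2 that the study left out as outliers, WT_CON_7604 and WT_MR_7612, are not in the values below unless named, so WT Con and WT MR hold 5 mice each, and NRF2 KO Con and NRF2 KO MR hold 6 each. Total counts of these 22 mice ran from 6197291 to 22068338.

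Glutathione transferases join the tripeptide glutathione to electrophilic compounds, which makes them more soluble and ready for export, and the alpha class is abundant in hepatocytes. Alpha-class enzymes also reduce lipid hydroperoxides and conjugate the aldehydes that arise when membrane lipids are oxidised. NRF2, the protein of Nfe2l2, is a transcription factor held in check by KEAP1. It binds antioxidant response elements near the genes of glutathione synthesis and conjugation, several alpha-class genes among them. Methionine supplies, by way of cysteine, sulphur for glutathione. The comparisons ask how the diet moved each gene within a genotype, how the genotypes differed on each diet, and whether the diet response differed between genotypes.

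Gsta1, Gsta2, Gsta4 and Gm10639 lie together on mouse chromosome 9 (build GRCm38, GENCODE M21 annotation) in a cluster of 173.0 kb, and Gsta3 lies alone on chromosome 1. All 5 are annotated as protein coding. Gsta4 (ENSMUSG00000032348) spans chr9:78182774-78209349 on the plus strand, Gsta1 (ENSMUSG00000074183) chr9:78230656-78242684 on the plus strand, Gm10639 (ENSMUSG00000074179) chr9:78289923-78305525 on the plus strand, and Gsta2 (ENSMUSG00000057933) chr9:78331018-78355788 on the minus strand. Gsta3 (ENSMUSG00000025934) spans chr1:21240589-21265661 on the plus strand, and an annotated gene on the opposite strand, Gm28836, overlaps it. A further alpha-class locus of the cluster, Gm3776 at chr9:78257129-78269166, was compared by sequence, and its expression was not analysed here.

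Gsta1, Gsta2 and Gm10639 are near copies of each other, and Gsta3 and Gsta4 are not. The transcripts of Gsta1 and Gsta2 were identical at 96.7% of aligned bases, those of Gsta1 and Gm10639 at 85.0%, and those of Gsta2 and Gm10639 at 85.9%. Gsta1 and Gm3776 were identical at 99.4%. Gsta3 and Gsta4 were identical at 43.4% with each other and at 43.0% to 59.6% with the 3 near copies. Reads of the libraries came from transcript 3′ ends, so the last 500 bases matter most for the counts. Of all 75-base reads that could be drawn from these bases, 83.6% of those of Gsta1 also occurred in another gene, nearly all of them in Gm3776 (82.2%), against 23.9% for Gsta2, 13.1% for Gm10639 and 0.0% for Gsta3 and Gsta4. At 50 bases, the read length that the labels give, the shares were 90.0%, 51.0%, 30.2%, 0.0% and 0.0%. How reads that match several genes were counted is not given in the sources used here. The counts of Gsta1, Gsta2 and Gm10639 are therefore uncertain as to which copy they came from, and shared reads may be missing from them. Their sum is given beside them.

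**Figure D1:**
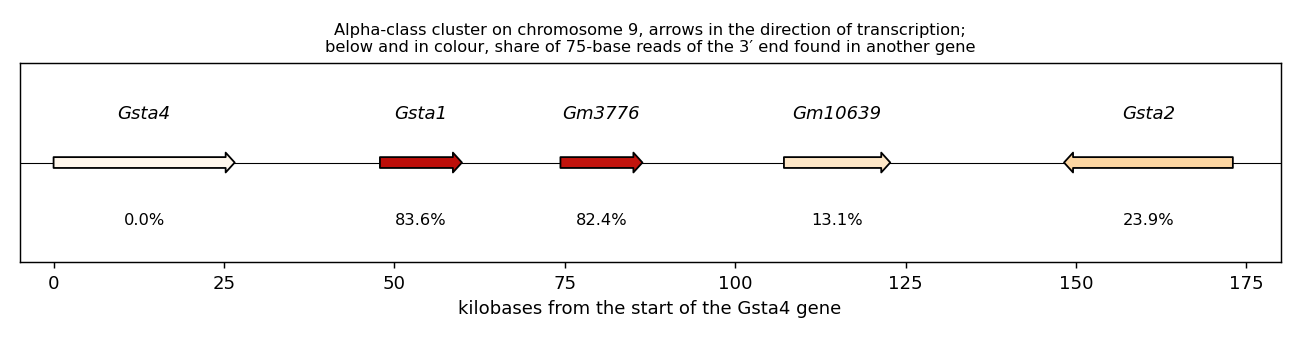
Map of the chromosome 9 cluster, with distance in kilobases from the start of Gsta4 on the x axis and arrows in the direction of transcription; colour and percentages give the share of 75-base reads from the last 500 bases of each transcript that also occur in another gene. Gsta1 and Gm3776 share most of their reads (83.6% and 82.4%), and Gsta4 shares none (0.0%).

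The primers that the study designed for Gsta2 by quantitative PCR show the same likeness. They are printed because the forward primer is not particular to 1 gene of the class.
Gsta2 forward: gaaggacatgaaggagagagc
Gsta2 reverse: ttcttcgatttgttttgcatc
The forward primer matched the transcripts of Gsta1, Gsta2, Gsta3, Gm10639 and Gm3776 with 0 mismatches and that of Gsta4 with 2. The best site of the reverse primer had 1 mismatch in Gsta2 and Gm10639, 2 in Gsta1 and Gm3776, 8 in Gsta3 and 9 in Gsta4. In Gsta1, Gsta2, Gm10639 and Gm3776 both sites were 397 bases apart, counted from end to end.

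The promoters of the near copies are also alike, and are printed to show the run of bases that these 3 genes share. The RefSeq sequences (build GRCm38.p6) run from 250 bases before to 50 bases after the gene start of RefSeq and were found for 4 of the 5 genes, all but Gsta4. For Gsta2 this start lies 8.64 kb inside the GENCODE gene given above, 13 bases from the nearest start of a GENCODE transcript, and for the other 3 it lies at most 13 bases from the GENCODE gene start. Capitals in the first 3 mark the longest run of bases that all 3 share, and capitals in Gsta3 mark a match to the core of the antioxidant response element, TGACNNNGC.
Gsta1: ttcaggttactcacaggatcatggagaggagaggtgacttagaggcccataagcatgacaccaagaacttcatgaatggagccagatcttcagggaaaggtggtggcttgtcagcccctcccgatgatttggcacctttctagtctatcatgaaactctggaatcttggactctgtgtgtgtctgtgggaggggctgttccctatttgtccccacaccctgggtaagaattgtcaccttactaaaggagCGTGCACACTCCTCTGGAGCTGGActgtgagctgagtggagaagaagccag
Gsta2: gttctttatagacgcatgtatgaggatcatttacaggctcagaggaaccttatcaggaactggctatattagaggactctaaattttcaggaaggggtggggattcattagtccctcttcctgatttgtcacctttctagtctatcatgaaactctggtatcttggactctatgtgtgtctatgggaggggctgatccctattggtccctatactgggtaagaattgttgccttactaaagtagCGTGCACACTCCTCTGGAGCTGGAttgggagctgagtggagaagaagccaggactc
Gm10639: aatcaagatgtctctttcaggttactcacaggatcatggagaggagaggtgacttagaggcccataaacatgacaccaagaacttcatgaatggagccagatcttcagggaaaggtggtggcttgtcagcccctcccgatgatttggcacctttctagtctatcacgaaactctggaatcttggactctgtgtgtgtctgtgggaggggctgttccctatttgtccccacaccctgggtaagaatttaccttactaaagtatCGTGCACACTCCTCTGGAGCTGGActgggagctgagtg
Gsta3: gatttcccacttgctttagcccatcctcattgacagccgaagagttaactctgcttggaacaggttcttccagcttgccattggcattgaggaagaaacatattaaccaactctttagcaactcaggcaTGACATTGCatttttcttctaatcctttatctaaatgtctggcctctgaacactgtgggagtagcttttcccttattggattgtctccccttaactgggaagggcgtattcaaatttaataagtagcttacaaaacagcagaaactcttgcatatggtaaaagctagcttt
They are chr9:78230419-78230718 on the plus strand for Gsta1, chr9:78347096-78347395 on the minus strand for Gsta2, chr9:78289678-78289977 on the plus strand for Gm10639 and chr1:21240335-21240634 on the plus strand for Gsta3. The shared run, CGTGCACACTCCTCTGGAGCTGGA, has 24 bases, spans the gene start or lies just after it, and occurs in 4 of the 32851 promoters of the table, those of Gsta1, Gsta2, Gm10639 and Gm3776. Identity over the whole window was 88.6% between Gsta1 and Gm10639, 74.6% between Gsta1 and Gsta2, 67.7% between Gsta2 and Gm10639, and 50.6% to 51.2% between Gsta3 and these 3. The letters TGACNNNGC were searched on both strands, and their first letters also begin AP-1 sites. They occurred once in Gsta3, as TGACATTGC at position -121 from the start, and 0 times in the windows of Gsta1, Gsta2 and Gm10639. Of all 32851 promoters, 4071 (12.4%) held them, and the search says nothing of elements outside these windows.

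Levels are given as CPM, read counts scaled to a common library size by edgeR. In these libraries each transcript gives reads from its 3′ end alone, so CPM was not divided by length. It stands for a level per transcript only where reads match 1 gene alone. Gsta3 was the most abundant gene of the class in every group by a wide margin. It took 94.6% ± 2.55 (SD) of the reads of the 5 genes in WT Con mice, 83.1% ± 1.36 in WT MR, 96.7% ± 1.24 in NRF2 KO Con and 91.3% ± 1.71 in NRF2 KO MR. Gsta4 followed, with 4.1%, 9.58%, 3.04% and 7.27% in the same order of groups, then Gsta2 with 1.06%, 6.35%, 0.284% and 1.39%. These are shares of counted reads. Reads of Gsta1, Gsta2 and Gm10639 that also match another gene may be missing from them, and such reads are the largest part for Gsta1. Gsta1 and Gm10639 stayed near or under 1%, with 0.837% and 0.184% in WT MR, where they were highest. The class as a whole summed to 1472 ± 319 CPM in WT Con, 1977 ± 192 in WT MR, 1001 ± 86.7 in NRF2 KO Con and 1207 ± 90.6 in NRF2 KO MR.

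**Figure D2:**
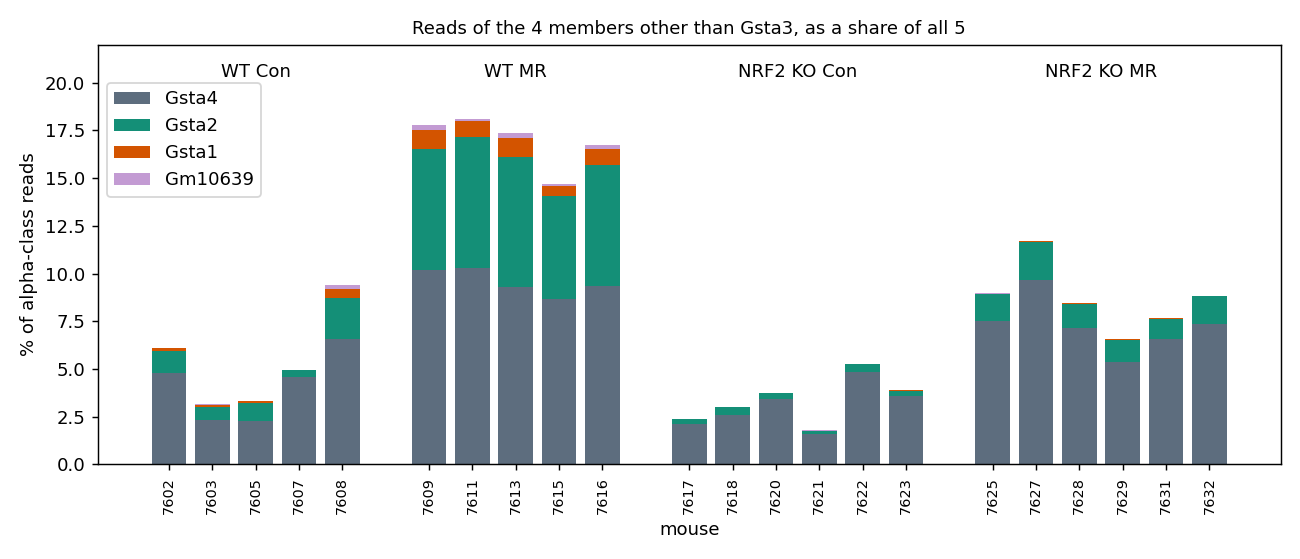
Share of the reads of all 5 genes taken by Gsta4, Gsta2, Gsta1 and Gm10639, in % on the y axis, stacked for each of the 22 mice; the rest of each bar up to 100% is Gsta3. The 4 minor genes together took the largest share in WT MR mice, where Gsta3 fell to between 81.8% and 85.3%.

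The transcript of Nfe2l2 does not show the deletion in these data, and 1 library stands apart in it. Nfe2l2 was at 94.0 to 107 CPM in WT MR mice, 228 to 339 CPM in NRF2 KO Con and 202 to 249 CPM in NRF2 KO MR. It was higher in NRF2 KO mice by 1.18 ± 0.22 (log2 fold change ± SE, adjusted p = 0.0035) on MR and by 0.83 ± 0.21 (adjusted p = 0.045) on Con. Reads counted at the 3′ end of the transcript were thus not fewer in NRF2 KO mice, and they do not check the deletion. In WT Con mice Nfe2l2 was at 106, 125, 117 and 118 CPM in WT_CON_7602, WT_CON_7603, WT_CON_7605 and WT_CON_7608, and at 324 CPM in the library labelled WT_CON_7607, which lies within the range of NRF2 KO Con. Without that library Nfe2l2 was higher in NRF2 KO mice on Con by 1.27 (adjusted p = 6.4e-09). The same library lay within the NRF2 KO Con range for Gsta1, Gsta2, Gsta3 and Gsta4 and just above it for Gm10639, and for Gsta4 WT_CON_7603 and WT_CON_7605 lay within that range too. The values of that library are kept under its label, and whether the label is right was not tested. The study reports that real time PCR of hepatic Nfe2l2 mRNA was used to check the genotype of every mouse. For the 5 transferases the tests that rest on WT Con are given with and without it, and for the genes named from the pathway lists and the counts in those lists the values without it, added after seeing the data, are given where they changed a call or a count. Cell type markers are given with it.

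Gsta2, an enzyme with broad conjugating and peroxidase activity, rose on MR in both genotypes. Its levels in WT Con mice were 18.6, 10.3, 15.3, 3.25 and 36.4 CPM (WT_CON_7602, WT_CON_7603, WT_CON_7605, WT_CON_7607 and WT_CON_7608), a mean of 16.8 ± 12.4 (SD, n = 5). In WT MR mice they were 114, 146, 137, 94.2 and 139.8 CPM (WT_MR_7609, WT_MR_7611, WT_MR_7613, WT_MR_7615 and WT_MR_7616), a mean of 126 ± 21.5 (n = 5). Every WT MR mouse was above every WT Con mouse. The rise was 7.39-fold, 2.89 ± 0.38 on the log2 scale (adjusted p = 9.6e-05 by the quasi-likelihood test of edgeR, adjusted by Benjamini-Hochberg over the 13336 genes), and 2.63 without the library WT_CON_7607 (adjusted p = 2.9e-05). NRF2 KO Con mice held 1.85, 2.83 and 3.45 CPM (lowest, median and highest, n = 6) and NRF2 KO MR mice 11.6, 16.5 and 25.3 CPM (n = 6). These groups did not overlap either, and Gsta2 rose 6.07-fold on MR in NRF2 KO mice (2.6 ± 0.41, adjusted p = 0.00051). Against WT, Gsta2 was lower in NRF2 KO mice on both diets, to 0.162 of the WT level on Con (-2.63 ± 0.42, adjusted p = 0.002) and to 0.133 on MR (-2.91 ± 0.36, adjusted p = 6.4e-05). On Con the genotypes overlapped through the library WT_CON_7607 alone, and without it the difference was -2.88 (adjusted p = 1.5e-05). NRF2 KO MR mice, at 16.9 ± 4.98 CPM, spanned a range that lay inside that of WT Con mice, and this pair of groups was not tested. This held through WT_CON_7608 alone. Without that mouse WT Con mice reached 18.6 CPM, below the 25.3 CPM of the highest NRF2 KO MR mouse.

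Gsta1, the closest relative of Gsta2, had few counted reads, and hardly any in NRF2 KO mice. Most of its 3′ reads also match another gene and may be missing, so its level beside the other genes is uncertain. WT Con mice held 2.41, 1.90, 1.20, 0.0722 and 8.11 CPM in the order given for Gsta2, and WT MR mice 18.3, 17.3, 20.7, 8.89 and 18.1 CPM. The lowest WT MR mouse was above the highest WT Con mouse. Gsta1 rose 5.75-fold on MR in WT mice (2.52 ± 0.49, adjusted p = 0.0022), by 2.24 on the log2 scale without the library WT_CON_7607 (adjusted p = 0.0015), by 3.60 without WT_CON_7608 (adjusted p = 9.4e-06) and by 1.86 with all 24 mice (adjusted p = 0.037). In NRF2 KO Con mice 0 to 3 reads were counted per mouse, 10 in all, and in NRF2 KO MR mice 2 to 12, 51 in all. The ratio of the pooled counts, scaled by the edgeR library sizes used for CPM, was 4.41 (95% binomial interval 2.21 to 9.75, counting error only). Of the 6 NRF2 KO MR mice 5 were above every NRF2 KO Con mouse, and the gene did not pass the test (adjusted p = 0.24). On Con, Gsta1 was lower in NRF2 KO mice (adjusted p = 0.0049), with a ratio of pooled counts of 0.0335 (95% interval 0.0159 to 0.0626), and the genotypes overlapped through the library WT_CON_7607 alone. Without that library the ratio was 0.0281 (95% interval 0.0133 to 0.0524, adjusted p = 2e-04). Of the 275 WT Con reads 193 came from WT_CON_7608. Without this mouse the ratio was 0.0805 (95% interval 0.0372 to 0.156, adjusted p = 0.0069), above the first interval, which leaves out the spread between mice. Each adjusted p beside a ratio is that of the edgeR fit. With all 24 mice weighted by sample quality Gsta1 did not pass on Con (adjusted p = 0.11). In a fit of the Con groups alone it was not abundant enough to be tested, and it entered the test above through WT MR mice, where it was highest. On MR it was lower by 5.08 on the log2 scale (SE 0.57, adjusted p = 2e-05), to 0.0295 of the WT level, with no overlap. This test, like that of the diet in WT mice, uses the WT MR mice through which the gene entered.

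Gm10639, annotated as a gene of the class from its sequence, had the fewest counted reads of the 5. WT Con mice held 0.366, 0.228, 0.261, 0.144 and 3.57 CPM, so that WT_CON_7608 alone was above 1 CPM. WT MR mice held 4.38, 2.55, 4.50, 2.56 and 4.14 CPM. Of the 5 WT MR mice, 3 were above every WT Con mouse. Gm10639 rose 3.53-fold on MR in WT mice (1.82 ± 0.54, adjusted p = 0.028). Without the library WT_CON_7607 the rise was 1.58 and did not pass the test (adjusted p = 0.057), and without WT_CON_7608 it was 3.82. With DESeq2 the adjusted p was 0.067. NRF2 KO mice had 0 to 1 read each on Con (2 in all) and 0 to 3 on MR (12 in all), which is too few for a fold between the diets. In the edgeR fit Gm10639 was lower in NRF2 KO than in WT mice on Con (adjusted p = 0.0085) and on MR (adjusted p = 0.00017). The ratio of pooled counts was 0.0184 (95% interval 0.0022 to 0.0684) on Con and 0.0316 (95% interval 0.0161 to 0.0563) on MR. These intervals hold counting error only and leave out the spread between mice. The genotypes did not overlap on either diet. In a fit of the Con groups alone Gm10639 was not abundant enough to be tested, and it entered the test above through WT MR mice, where it was highest. The tests of genotype on MR and of the diet in WT mice use those same mice. On Con, 85 of the 100 WT reads came from WT_CON_7608. Without this mouse 15 WT reads were left and the ratio was 0.0880 (95% interval 0.00976 to 0.378), above the interval with it, and the adjusted p in edgeR was 0.025. Without the library WT_CON_7607 the ratio was 0.0157 (95% interval 0.00188 to 0.0583), and the adjusted p in edgeR was 0.0027.

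Counted as 1 feature, the summed counts of Gsta1, Gsta2 and Gm10639 gave nearly the values of Gsta2. The sum does not depend on how counted reads were split among these 3 genes. Whether reads that match several of them, or Gm3776, are in it, repeated in it or missing from it is not known. The sum was 20.4 ± 16.8 CPM in WT Con, 146 ± 25.6 in WT MR, 2.93 ± 0.619 in NRF2 KO Con and 17.5 ± 5.03 in NRF2 KO MR. On MR it rose by 2.82 ± 0.41 (log2) in WT and 2.58 ± 0.43 in NRF2 KO mice. The difference between NRF2 KO and WT mice was -2.84 ± 0.44 on Con and -3.07 ± 0.39 on MR. Without the library WT_CON_7607 the rise in WT mice was 2.56 and the difference on Con -3.10, and without WT_CON_7608 they were 3.44 and -2.22.

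Gsta4, the enzyme of the class known for conjugating 4-hydroxynonenal and related products of lipid peroxidation, rose about as much in both genotypes. WT Con mice held 78.3, 36.5, 35.3, 41.6 and 111 CPM, and WT MR mice 185, 219, 187, 152 and 205 CPM, with no overlap. The rise was 3.12-fold (1.64 ± 0.31, adjusted p = 0.0019), and 1.54 without the library WT_CON_7607 (adjusted p = 0.0062). NRF2 KO Con mice held 16.7, 29.9 and 44.1 CPM (lowest, median and highest) and NRF2 KO MR mice 58.3, 89.9 and 123 CPM. These groups did not overlap, and the rise was 2.95-fold (1.56 ± 0.29, adjusted p = 0.0017). Against WT, Gsta4 was at 0.493 of the level on Con (-1.02 ± 0.30, adjusted p = 0.088) and 0.466 on MR (-1.1 ± 0.29, adjusted p = 0.056), and neither passed the test. All 6 NRF2 KO MR mice were below all 5 WT MR mice. With DESeq2 both differences passed (adjusted p = 0.032 on Con and 0.015 on MR), and without the library WT_CON_7607 the adjusted p in edgeR was 0.065 on Con and 0.049 on MR.

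Gsta3, which carries most of the class and is known in mice for detoxifying the epoxide of aflatoxin B1, differed by genotype and not detectably by diet. WT Con mice held 1533, 1511, 1509, 865 and 1536 CPM, so that 4 of the 5 lay between 1509 and 1536 CPM and the library WT_CON_7607 stood apart. WT MR mice held 1487, 1732, 1663, 1493 and 1828.5 CPM. The diet difference was 1.18-fold in WT mice (0.24 ± 0.12, adjusted p = 0.19) and 1.14-fold in NRF2 KO mice (0.19 ± 0.11, adjusted p = 0.29), and the 95% intervals of these log2 values ran from 0.00 to 0.47 and from -0.03 to 0.40. Without the library WT_CON_7607 the WT value was 0.11 (adjusted p = 0.45). Scaled by library size only, both diet differences were 0.34 and passed (adjusted p = 0.025 in WT and 0.01 in NRF2 KO mice). NRF2 KO Con mice held 854, 1001 and 1061 CPM (lowest, median and highest) and NRF2 KO MR mice 1018, 1108 and 1195 CPM. Gsta3 was lower in NRF2 KO mice on Con, to 0.696 of the WT level (-0.52 ± 0.11, adjusted p = 0.012), and on MR, to 0.671 (-0.58 ± 0.11, adjusted p = 0.0047). All NRF2 KO MR mice were below all WT MR mice. Without the library WT_CON_7607, WT Con mice were at 1522 ± 14.2 CPM (n = 4), above every NRF2 KO Con mouse, and the difference was -0.65 (adjusted p = 2.2e-05). With all 24 mice the genotype differences of Gsta3 did not pass on Con (-0.43, adjusted p = 0.11) or on MR (-0.50, adjusted p = 0.065).

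**Figure D3:**
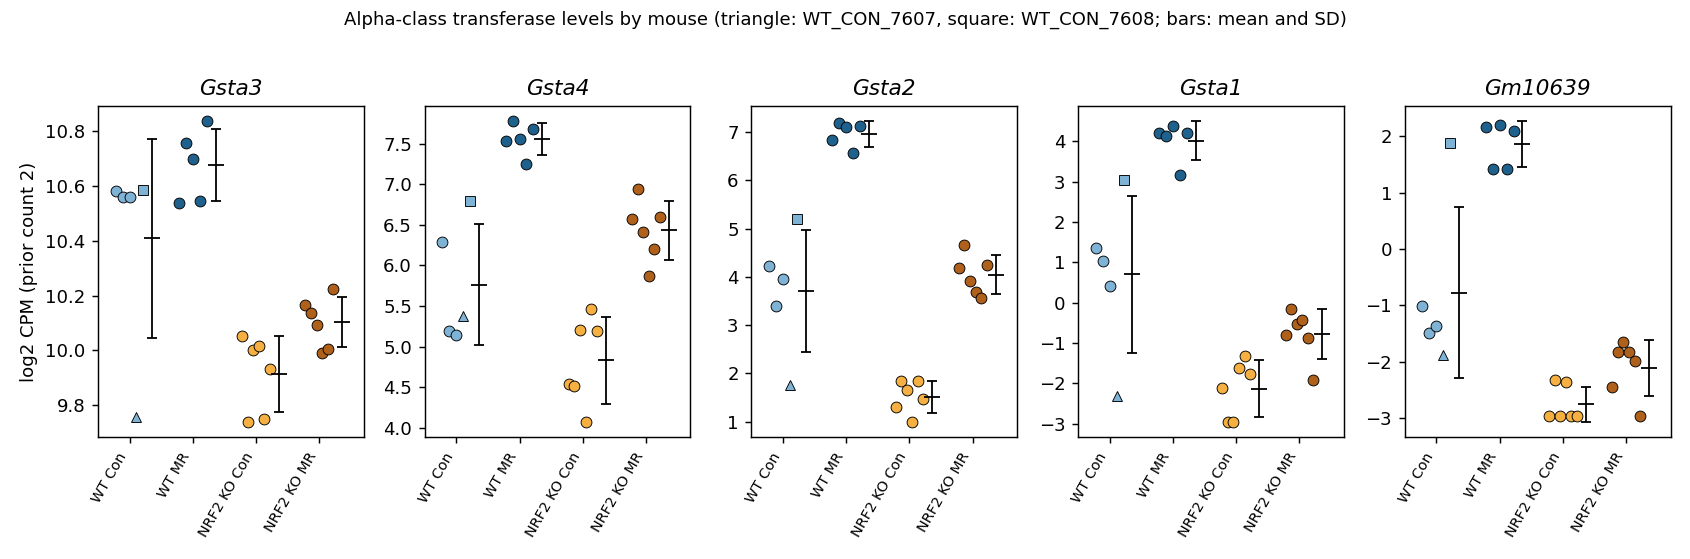
Level of each gene in each of the 22 mice, as log2 CPM with a prior count of 2 on the y axis (its range differs between panels), by group on the x axis; bars give the mean and SD, the triangle is the library WT_CON_7607 and the square is WT_CON_7608. Gsta2 in WT MR mice (94.2 to 146 CPM) lies above all other groups, and the triangle of WT_CON_7607 sits among the NRF2 KO Con mice for all genes but Gm10639, where it is just above them.

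Counted together, 4 of the 5 genes were called higher on MR in WT mice, against 6.91% of all genes tested called higher and 6.91% called lower (13.8% in all). Without the library WT_CON_7607 the count was 3. The median log2 fold change was 1.82 for the 5 genes, which is the value of Gm10639, and -0.006 for all genes. Gm10639 entered the test through WT MR mice. In NRF2 KO mice 2 of the 5 were called higher on MR, Gsta2 and Gsta4, against 6.23% of all genes called higher and 6.34% lower (12.6% in all), and the other 3 were Gsta3 and the pair with hardly any reads. On Con 4 of the 5 were called lower in NRF2 KO than in WT mice, against 1.27% of all genes called lower and 0.802% higher (2.07% in all). The median was -2.63, the value of Gsta2, against -0.004. It includes fitted folds of Gsta1 and Gm10639, which had hardly any reads in NRF2 KO mice. Without the library WT_CON_7607 the count was 4. Fitted on the Con groups alone, 3 of the 5 were abundant enough to be tested and 1, Gsta2, was called. Gsta1 and Gm10639 were not tested in that fit. On MR, with all 4 groups in the fit, 4 of the 5 were called lower, against 1.38% of all genes called lower and 0.555% higher (1.93% in all). The median was -2.91, the value of Gsta2, against 0.005, and it includes fitted folds of Gsta1 and Gm10639 too. Gsta3 and Gsta4 were at -0.58 and -1.1. Without the library WT_CON_7607 the count was 5, and it was also 5 in a fit of the MR groups alone. In fits of the compared groups alone, Gsta1 and Gm10639 were tested only where WT MR, the group where they were highest, was included. With at least 10 counts in every mouse, 2 of 3 tested were called on each diet. No gene of the class was called higher in NRF2 KO mice or lower on MR. Whole liver was sequenced, so fewer cells that express a gene and less of its RNA per cell cannot be told apart.

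**Figure D4:**
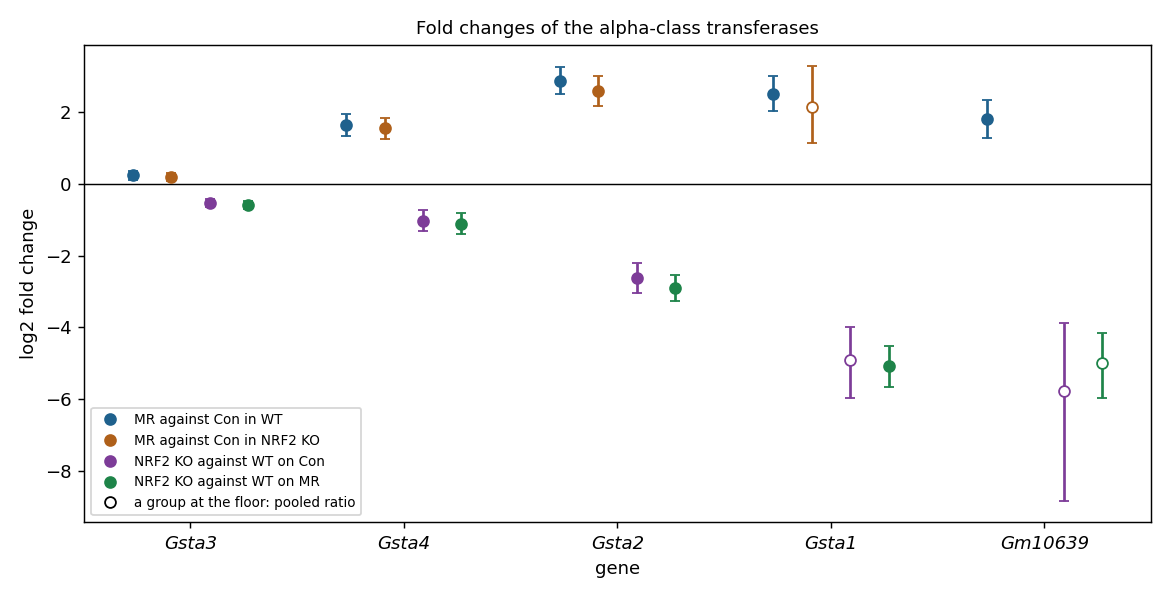
Log2 fold change (y axis) of each gene (x axis) in the 4 comparisons; filled points are fitted values with bars of 1 SE, and open points are ratios of pooled counts with 95% counting intervals where a group had no mouse above 3 reads. All diet values lie above 0 (Gsta2 2.89 in WT and 2.6 in NRF2 KO) and all genotype values below it (Gsta2 -2.63 on Con and -2.91 on MR); the diet value of Gm10639 in NRF2 KO is left out for want of reads.

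The diet response in proportion was not detectably different between genotypes for any of the 5 genes. The interaction, the log2 fold change on MR in NRF2 KO mice minus that in WT mice, was -0.28 ± 0.55 for Gsta2 (adjusted p = 0.95, 95% interval -1.37 to 0.80), -0.08 ± 0.42 for Gsta4 (adjusted p = 0.98, interval -0.90 to 0.74) and -0.05 ± 0.16 for Gsta3 (adjusted p = 0.97, interval -0.37 to 0.26). The interaction without the library WT_CON_7607 was -0.03 for Gsta2, 0.03 for Gsta4 and 0.07 for Gsta3, so that the sign turned for Gsta4 and Gsta3, and 0 of the 5 genes were called. For Gsta1 and Gm10639 the adjusted p was 0.98 and the reads in NRF2 KO mice were too few for a value. In edgeR 0 of the 5 genes were called for the interaction, 0 of the 5 had an unadjusted p under 0.05 (1008 of the 13336 genes had one), and DESeq2 also called 0, against 0.045% of all genes (6 of 13336, 0.0225% in each direction) in edgeR. In amounts the responses were far apart. The mean of Gsta2 rose by 109 CPM on MR in WT mice and by 14.1 CPM in NRF2 KO mice, that of Gsta4 by 129 and 58.5 CPM, and that of Gsta1 by 13.9 and 0.370 CPM, and these differences in amount were not tested. The mean in NRF2 KO mice as a share of the WT mean, on Con and on MR, was 16.6% and 13.4% for Gsta2, 4.49% and 2.96% for Gsta1, 49.6% and 46.7% for Gsta4, and 69.6% and 67.1% for Gsta3. Without WT_CON_7608 the shares on Con were 23.5% for Gsta2, 8.81% for Gsta1, 62.6% for Gsta4 and 71.5% for Gsta3, and the interaction of Gsta2 was -0.81 (adjusted p = 0.73). The shares on Con without the library WT_CON_7607 were 13.8% for Gsta2, 3.61% for Gsta1, 46.0% for Gsta4 and 63.6% for Gsta3.

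**Figure D5:**
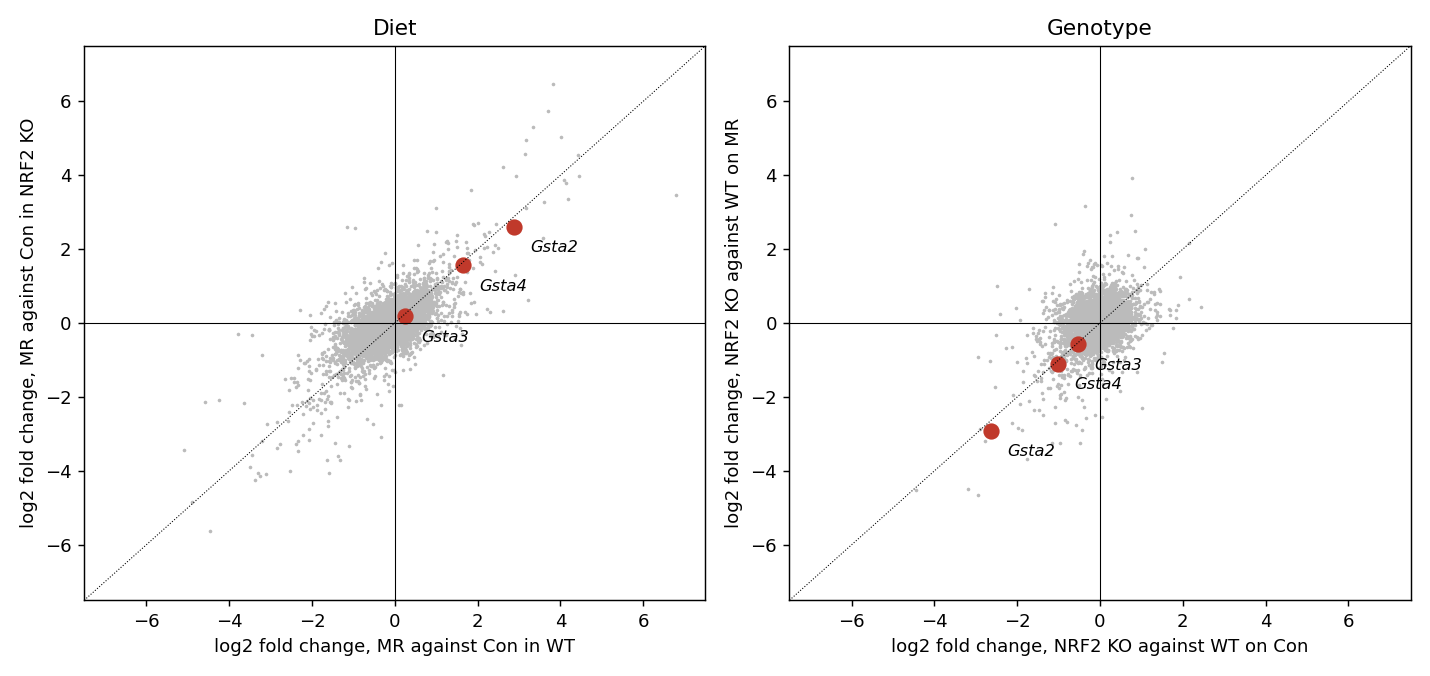
Log2 fold change of all tested genes (grey) and of Gsta2, Gsta3 and Gsta4 (red); left, MR against Con in NRF2 KO mice (y axis) against that in WT mice (x axis), and right, NRF2 KO against WT on MR (y axis) against that on Con (x axis), with a dotted line where both are equal. The 3 genes lie close to the line in both panels (Gsta2 at 2.89 and 2.6, and at -2.63 and -2.91); Gsta1 and Gm10639 are not drawn, and 1 gene lies outside the axes.

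The counts in the lists of related genes that follow are to be read against the shares of all genes called. On MR these were 6.91% higher and 6.91% lower in WT mice and 6.23% and 6.34% in NRF2 KO mice. By genotype 1.27% were lower on Con and 1.38% on MR, and 0.802% and 0.555% were higher. Without the library WT_CON_7607, of 13441 genes tested, 1489 were called for MR in WT mice and 1771 in NRF2 KO mice. That fit called 314 genes for genotype on Con, 336 on MR and 12 for the interaction. With the library these counts were 1843, 1677, 276, 258 and 6 of 13336. A count of 1 in a list of 12 to 17 genes is near the diet shares.

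The list of other cytosolic transferases held 16 tested genes, of the mu, pi, theta, omega and zeta classes, with Hpgds of the sigma class and Gstcd, which has a transferase-like domain. On MR 6 rose and 0 fell in WT mice, and the same counts held in NRF2 KO mice, with median log2 fold changes of 0.05 and 0.32. In NRF2 KO mice 5 were lower on Con (median -0.32) and 4 on MR (median -0.30), and none was higher. The most abundant of them, Gstm1 of the mu class, rose on MR in both genotypes. It went from 1229 ± 608 CPM in WT Con to 3962 ± 166 in WT MR (1.69 ± 0.24, adjusted p = 0.00014). In NRF2 KO mice it went from 282 ± 46.3 CPM on Con to 606 ± 64.6 on MR (1.1 ± 0.22, adjusted p = 0.0026). Gstz1, which also acts in tyrosine breakdown, was at 513 ± 107 CPM and Gstt1 at 257 ± 40.8 CPM in WT Con, and neither passed the test in any comparison. The list of mitochondrial and microsomal transferases held 5 tested genes, Gstk1, Mgst1, Mgst3 and the related membrane proteins Ltc4s and Alox5ap of leukotriene synthesis. Of these 1 was called higher and 1 lower on MR in WT mice (without the library WT_CON_7607, 1 and 2), 1 and 1 in NRF2 KO mice, and by genotype 0 on Con and 1 lower on MR. The gene that was lower in WT mice was Alox5ap (-0.76, adjusted p = 0.0066), the activating protein of 5-lipoxygenase in leukocytes and not a transferase. Mgst3 rose on MR in WT mice (1.40 ± 0.26, adjusted p = 0.0013) and NRF2 KO mice (1.22 ± 0.24, adjusted p = 0.0026). Mgst1, a microsomal enzyme at 2097 ± 591 CPM in WT Con, fell on MR in NRF2 KO mice (-0.72 ± 0.15, adjusted p = 0.0029), where Gsta2 and Gsta4 rose. Gstk1 passed in none, and without the library WT_CON_7607 it fell on MR in WT mice (-0.32, adjusted p = 0.047).

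In a list of glutathione synthesis, reduction and breakdown, 6 of 10 genes rose on MR in each genotype and 0 fell, with medians of 0.46 in WT and 0.39 in NRF2 KO mice. Chac1 and Ggct, which act in the breakdown of glutathione, were among them, Chac1 in WT (1.29, adjusted p = 0.043) and NRF2 KO mice (2.16, adjusted p = 0.00095) and Ggct in NRF2 KO mice (0.56, adjusted p = 0.049). The diet counts were 5 and 5 without the library WT_CON_7607, where Chac1 in WT mice (1.25, adjusted p = 0.082) and Ggct in NRF2 KO mice (adjusted p = 0.055) did not pass. In NRF2 KO mice 1 was lower on Con and 3 on MR. Gclc, the catalytic subunit of the enzyme that limits glutathione synthesis, was lower in NRF2 KO mice by 0.88 on Con (adjusted p = 0.0071) and by 1.41 on MR (adjusted p = 2.9e-05), and its diet values were 0.27 and -0.26, neither past the test. Its partner Gclm rose on MR in WT (0.54, adjusted p = 0.00033) and NRF2 KO mice (0.32, adjusted p = 0.011), and Oplah, which recovers glutamate from 5-oxoproline, rose in WT mice (0.38, adjusted p = 0.021). Of 17 genes of mercapturate formation and conjugate export, 4 rose and 2 fell on MR in WT mice, 1 rose and 3 fell in NRF2 KO mice, 1 was lower in NRF2 KO mice on Con and 4 on MR, and the interaction called 2. Without the library WT_CON_7607 the WT diet counts were 2 and 1, and 5 were lower in NRF2 KO mice on MR. Abcc2, the canalicular exporter of glutathione conjugates, rose on MR in WT mice (0.37 ± 0.12, adjusted p = 0.034, and 0.29 without the library WT_CON_7607, adjusted p = 0.094) and was at -0.41 in NRF2 KO against WT mice on MR (adjusted p = 0.051, and 0.021 without that library), and the acetyltransferases Nat8f1 and Nat8f2 passed in no comparison. Of 16 genes that handle lipid peroxides and aldehydes, the substrates of Gsta4, 4 rose (5 without the library WT_CON_7607) and 1 fell on MR in WT mice, 3 rose and 4 fell in NRF2 KO mice, and in NRF2 KO mice 0 were lower on Con (2 without the library WT_CON_7607) and 5 on MR. Aldh1a1 and Aldh2, dehydrogenases of retinal and acetaldehyde, fell on MR in NRF2 KO mice (-0.65, adjusted p = 0.0026, and -0.35, adjusted p = 0.016), and the peroxidase Gpx1 passed in none.

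Of 20 other genes known as NRF2 targets, 11 rose and 0 fell on MR in WT mice (median 0.62), and 7 rose and 1 fell in NRF2 KO mice (median 0.38). Without the library WT_CON_7607 the NRF2 KO counts were 11 and 1. In NRF2 KO mice 9 of the 20 were lower on Con (median -0.47, and 11 without the library WT_CON_7607) and 13 on MR (median -0.92). Ephx1, the microsomal epoxide hydrolase, rose in both genotypes on MR (1.42, adjusted p = 4.7e-05, and 0.93, adjusted p = 0.0011) and was lower in NRF2 KO mice on both diets (-1.26, adjusted p = 0.00052, and -1.75, adjusted p = 2.2e-06). The ferritin subunits Fth1 and Ftl1 rose on MR in WT mice (0.64, adjusted p = 0.00087, and 0.99, adjusted p = 0.001) and were lower in NRF2 KO mice on MR (-0.80, adjusted p = 8.2e-05, and -0.94, adjusted p = 0.0028). Both were also lower in NRF2 KO mice on Con without the library WT_CON_7607 (-0.41, adjusted p = 0.014, and -0.59, adjusted p = 0.018), and Ftl1 rose on MR in NRF2 KO mice (0.48, adjusted p = 0.013). Aox1, an aldehyde oxidase, was at 0.83 for MR in NRF2 KO mice (adjusted p = 0.054, and 0.0015 without that library). The interaction called 0 of the 20, and 1 without the library WT_CON_7607. The xenobiotic receptors CAR, PXR and AhR, which also act on alpha-class genes, counted 14 tested genes with their partner Rxra, their cytochrome P450 targets and the P450 reductase Por. Of these 4 rose on MR in WT mice and 5 in NRF2 KO mice, 0 fell, and 0 differed by genotype on either diet (without the library WT_CON_7607, of 15 tested, 3 and 6 rose, and 1 was higher in NRF2 KO mice on MR). The 3 most abundant, Cyp3a11, Cyp1a2 and Cyp2c29, passed in no comparison, and without the library WT_CON_7607 Cyp2c29 rose on MR in NRF2 KO mice (0.55, adjusted p = 0.046). Of 12 regulators and partners of NRF2, 1 rose on MR in WT mice and 3 in NRF2 KO mice, and by genotype Nfe2l2 was higher on both diets and 1 gene was lower on Con (2 on Con and 1 on MR without the library WT_CON_7607, where Nfe2l2 also fell on MR in NRF2 KO mice by 0.31, adjusted p = 0.016). Mafg, a small Maf partner of NRF2, rose on MR in WT (0.59, adjusted p = 0.00042) and NRF2 KO mice (0.56, adjusted p = 0.00035), and without the library WT_CON_7607 it was lower in NRF2 KO mice on Con (-0.36, adjusted p = 0.013) and MR (-0.30, adjusted p = 0.029). Sqstm1, whose product binds KEAP1, passed in none.

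Across the 22 mice, the genes whose log2 CPM followed each transferase most closely were picked from 11992 genes with a mean of at least 1 CPM. These values of Pearson's r are descriptions, over mice that fall into the same 4 groups for every gene. Gsta1 went with Gstm1 (r = 0.980), Arpp19 (0.975) and Aox1 (0.973). Gsta2 went with Creg1 (0.968), Ephx1 (0.967) and Ugdh (0.953). Gsta3 went with C2cd2 (0.951), 9130409I23Rik (0.943) and Hfe (0.942), Gsta4 with Blvrb (0.938), Epb41l1 (0.929) and Akr1c19 (0.924), and Gm10639 with Txnrd1 (0.955), Gstm1 (0.947) and Grina (0.932). Within the class, Gsta1 and Gm10639 were most alike (0.954), then Gsta2 and Gsta4 (0.937) and Gsta1 and Gsta2 (0.917), and Gsta3 and Gsta4 were least alike (0.675). With the mean of each group removed, r was 0.743 for Gsta1 with Gsta2 and 0.235 for Gsta3 with Gsta4. For the genes named outside the class it ran from 0.573 (Gsta2 with Ugdh) to 0.922 (Gsta1 with Gstm1). WT_CON_7607 and WT_CON_7608 were the lowest and highest WT Con values of Gsta1 (0.0722 and 8.11 CPM) and of Gstm1 (439 and 2075 CPM). No r was computed without them.

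The tissue carried the markers of hepatocytes in every group. The 8 hepatocyte markers, led by Alb, summed to 107490 ± 12075 CPM in WT Con, 86832 ± 6726 in WT MR, 122960 ± 6752 in NRF2 KO Con and 108430 ± 9538 in NRF2 KO MR, a sum that was lowest in WT MR mice, where all 5 transferases had their highest mean. By the test 1 of the 8 fell on MR in each genotype. Of 9 pericentral markers, led by Cyp2e1, 2 fell on MR in WT mice and 4 in NRF2 KO mice, and of 8 periportal markers, led by Pck1, 0 passed in any comparison. Bile duct markers, led by Sox9, summed to 60.6 ± 11.9 CPM in WT Con, 25.6 ± 3.03 in WT MR, 40.97 ± 7.78 in NRF2 KO Con and 25.1 ± 3.39 in NRF2 KO MR, and of 5 tested 4 fell on MR in WT mice, 1 in NRF2 KO mice, and 1 was lower in NRF2 KO mice on Con. Kupffer cell markers, led by Cd5l, summed to 369 ± 49.8, 273 ± 14.7, 338 ± 54.6 and 289 ± 35.5 CPM in the same order, and 3 of 7 fell on MR in WT mice and 1 in NRF2 KO mice. Stellate cell markers, led by Dcn, summed to 561 ± 132, 418 ± 49.3, 513 ± 24.97 and 469 ± 39.6 CPM, and 4 of 7 fell in WT mice and 3 in NRF2 KO mice. Endothelial markers (6 tested, led by Clec4g) showed 1 rise on MR, in NRF2 KO mice. Neutrophil (3) and red blood cell markers (5) showed 1 fall each on MR in WT mice, the latter also 1 in NRF2 KO mice, the single pancreatic acinar marker tested fell on MR in NRF2 KO mice, and B cell (3) and T and NK cell markers (3) passed in none. Apart from the bile duct marker, only 1 hepatocyte marker passed by genotype, and it was higher in NRF2 KO mice on MR. Of all genes, 6.91% were called lower on MR in WT mice and 6.34% in NRF2 KO mice, with 6.91% and 6.23% higher. By genotype 1.27% were lower and 0.802% higher on Con, and 1.38% and 0.555% on MR. A single call in lists this short is not read as a change of a cell type. The part of these cell types in the changes of the 5 transferases was not tested.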

How the data were processed

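Liver RNA of 24 mice was made by the authors into QuantSeq 3′ libraries, 1 per mouse and each from a separate animal. The count values are raw reads summed for each gene, deposited by the authors after processing with the kit maker's pipeline (QuantSeq pipeline 2.3.6, R 3.4.3, DESeq2 1.18.1, build GRCm38 or mm10 per the submitters' processing notes). The aligner and the treatment of reads with several matches are not given in the sources used here. The signal values, deposited by the authors as normalized counts, equal the counts over DESeq2 size factors of all 24 mice (largest relative deviation 5.1e-15) and served 1 alternative.

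Counts were fitted in R 4.3.3 with edgeR 4.0.16 (TMM, its filter by expression, robust quasi-likelihood F-tests, two-sided) with all 4 groups and their own means in 1 model. The filter left out 1824 of 15160 genes. Calls used a Benjamini-Hochberg adjusted p under 0.05 over 13336 genes. The study used DESeq2, here an alternative (DESeq2 1.42.0). P-values measure the spread between mice. Where no mouse of a group had more than 3 reads, ratios of pooled counts with exact 95% binomial intervals replace fitted folds. These intervals hold counting error only, and an adjusted p beside such a ratio is that of the edgeR fit. Ratios without WT_CON_7607 or WT_CON_7608, like the NRF2 KO levels as a share of WT with 1 of them left out, were added after seeing the data. Log2 CPM used a prior count of 2. The fits were tested on simulated data. No pair of mice of a group differed by less than sampling noise (smallest chi-square per degree of freedom 8.32).

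Named were the 5 genes, Nfe2l2, the 3 most abundant tested genes of each pathway list, and the 3 genes with the highest Pearson's r to each of the 5. Chac1, Ggct, Alox5ap and Aox1 were given values after these were seen. The genes, lists and tests were chosen with earlier results of these data known. Lists came from general knowledge. The expression of the 5 further alpha-class loci, Gm3776 among them, was not analysed here. The alternatives tried were scaling by DESeq2 size factors or by library size alone, no filter on low counts, at least 10 counts in every mouse, DESeq2, limma 3.58.1 on log2 of the normalized values with a pseudocount of 1, fits of the compared groups only, all 24 mice (unweighted, or weighted by sample quality), and leaving out each mouse in turn. Sequences were aligned with Biopython 1.88 and plots drawn with matplotlib 3.10.9.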

Additional observations from a re-analysis of the deposited data

Results flagged for a closer look

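In 3 of 20 groups of mice tested, 1 mouse lay far from the others of its group, where chance gives about 1 in 20. Gsta3 was at 865 CPM in the library labelled WT_CON_7607, against 1509 to 1536 CPM in the other WT Con mice. Gm10639 was at 3.57 CPM in WT_CON_7608, against 0.144 to 0.366 CPM in the others. Gsta1 was at 8.89 CPM in WT_MR_7615, against 17.3 to 20.7 CPM in the others, and this mouse had the fewest total counts (6197291) of all.

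The mice that the study left out also carried high levels of the near copies. WT_CON_7604 held 20.1 CPM of Gsta1, 56.0 CPM of Gsta2 and 5.29 CPM of Gm10639, each above all 5 WT Con mice that were fitted. WT_MR_7612 held 40.0 CPM of Gsta1, 177 CPM of Gsta2 and 7.80 CPM of Gm10639, each above all 5 WT MR mice that were fitted. Its Gsta4, at 175 CPM, was above every WT Con mouse. Gsta3 was low in both, at 817 CPM in WT_CON_7604 and 1176 CPM in WT_MR_7612.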

How the results depend on the processing

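The counts of the 5 genes called moved most when fewer could be tested. With at least 10 counts in every mouse 3 of the 5 remained in the test, and 2 were called for MR in WT mice, 2 for genotype on Con and 2 on MR. Fitting only the compared groups, 1 of 3 tested was called for genotype on Con. Leaving out each mouse gave 3 to 4 genes called for MR in WT mice, 2 in NRF2 KO mice, 4 to 5 for genotype on either diet and 0 for the interaction. Gm10639 lost its call for MR in WT mice with DESeq2 (adjusted p = 0.067), with only the groups compared (1.79), with all 24 mice (1.36) and without any 1 of 7 mice (1.56 to 3.82 over all 22). Gsta3 lost its call for genotype on Con with only the groups compared (-0.52, adjusted p = 0.12), with all 24 mice (-0.43) and with quality weights (-0.42), and on MR with all 24 mice (-0.50). Gsta1 lost its call on Con with the weights (adjusted p = 0.11). Gsta4 passed for genotype on Con with DESeq2, all 24 mice, the weights and without WT_CON_7605, and on MR with those 3, with only the groups compared and without any 1 of 7 mice. With library size only, under which the median diet difference of all genes was 0.152 in NRF2 KO and 0.087 in WT mice (-0.004 and -0.006 with TMM), Gsta3 rose on MR in both genotypes by 0.34. The sign of the interaction was not stable: with all 24 mice it was 0.09 for Gsta2, 0.06 for Gsta4 and 0.21 for the summed near copies, and for Gsta4 0.01 with library size only and 0.01 with the weights. Leaving out each mouse it ran from -0.81 to -0.03 for Gsta2, -0.09 to 0.07 for Gsta3, -0.43 to 0.07 for Gsta4 and -0.86 to 0.02 for the sum. The sum moved to 2.38 for MR in WT mice and -3.40 for genotype on Con with all 24 mice, and without WT_CON_7608 to 3.44 and -2.22. Over all genes, DESeq2 called 451 for genotype on Con, 496 on MR and 35 for the interaction. Only the groups compared gave 99 and 600 for genotype, library size only 2785 for MR in NRF2 KO mice, and the weights 2693 there and 604 for genotype on MR. Without 1 mouse the interaction called 3 to 12 genes and genotype on Con 181 (without WT_CON_7603) to 314. The causes were not tested. No paired analysis was possible because mouse numbers are unique and no label pairs mice. Depth limits Gsta1 and Gm10639 in NRF2 KO mice, with 0 to 12 reads each.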

Other observations

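WT_CON_7608 was the highest of the 5 WT Con mice for all 5 transferases. Its Gstm1 was at 2075 CPM, against 439 to 1431 CPM in the other WT Con mice and 3727 to 4096 CPM in WT MR mice. Asns, asparagine synthetase of the amino acid response, chosen after its values were seen, was at 6.30 CPM in this mouse, 3.61 to 5.40 CPM in the other WT Con mice and 73.1 to 93.6 CPM in WT MR mice. Without WT_CON_7608 Gsta1 rose by 3.60 on the log2 scale on MR in WT mice and Gsta2 by 3.41, and the difference of Gsta2 between NRF2 KO and WT mice on Con was -2.11.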
